A study of Mus musculus with 15 samples.

Results

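The epidermal kallikreins and Spink5 are the secreted proteases that free dead cells from the skin surface and the inhibitor that holds them back. They comprise 10 genes of the 24543 in the deposited table, namely Klk5, Klk6, Klk7, Klk8, Klk9, Klk10, Klk11, Klk13, Klk14 and Spink5. The genes were taken by name for that role, and the Klk1 and Klk1b genes were left out. All 10 were measured, and all 10 passed the filter on low values used below.

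Levels were measured by RNA sequencing of whole skin in 15 libraries. Every mouse was K14CreERTM/LSL-SOX2 on the strain background 129/SvEv/C57/B16 X CD-1. In this design a Cre recombinase, made from the keratin 14 promoter in basal keratinocytes and the outer hair follicle, is active once tamoxifen is given and is meant to release a silent SOX2 transgene. The drug was put on the skin dissolved in ethanol (200 µl at 5 mg/ml), and ethanol alone served as vehicle. The wounded groups were 4 libraries called wounded set B and 4 called wounded set A, both from day 4. The unwounded groups, from day 0, were 3 libraries of tamoxifen skin (replicates 2, 3 and 4) and 4 of vehicle skin. Treatment names conflict for the 8 wounded libraries and for none of the 7 unwounded ones. Set B is tamoxifen wounded and set A vehicle wounded in the Group row of the gene table, whereas the sample records name set B vehicle and set A tamoxifen. The deposited sheet of samples lists both namings. There the records' naming is headed Old Group and the gene table's naming New Group. The sets keep their letters, and results of the members are given under both namings. Wounding results of the other pathway genes are given by the gene table's names, with some by the records' names. All groups carry both transgenes, and no group given tamoxifen without the SOX2 transgene was analysed here. Wounded skin was taken on another day than unwounded skin, so wounding and day cannot be told apart. No source used here gives the age of the mice or how many stand behind a library, and p-values speak for the spread among these libraries, which may be technical.

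Kallikreins are serine proteases made as inactive precursors by granular keratinocytes and released into the space below the cornified layer. There they cleave corneodesmosin, desmoglein 1 and desmocollin 1, the adhesion proteins of the corneodesmosomes that hold dead cells together, and this cleavage lets the skin shed its surface. In human skin KLK5 can activate itself and then activates KLK7 and KLK14, which makes a cascade. LEKTI, the product of Spink5, is a chain of inhibitory domains that blocks KLK5, KLK7 and KLK14, and its loss causes Netherton syndrome, in which the barrier peels and the skin is inflamed. Some kallikreins also cut a protease-activated receptor on keratinocytes, encoded by F2rl1.

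The 9 kallikrein genes lie side by side on the plus strand of chromosome 7, between positions 43690418 and 43851181 of mm10 (GENCODE M21 on GRCm38), a span of 160.8 kb. In chromosome order they are Klk14, Klk13, Klk11, Klk10, Klk9, Klk8, Klk7, Klk6 and Klk5, with Klk12 between Klk13 and Klk11 as the other protein-coding gene of the span. An antisense transcript, 2310002F09Rik, overlaps 6 of the kallikreins (Klk14, Klk13, Klk11, Klk10, Klk9 and Klk8) and was listed at 0.0233 to 0.221 RPKM (reads per kilobase, corrected for library size). No source used here says whether the counting used strand. Klk8 shares 21.7% of its 50-base stretches with that antisense transcript, and Klk14 shares 21.0% with it and other transcripts, so reads there could be split. The other 8 members share none.

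Stretches before the start sites of 4 kallikreins are shown from RefSeq (GRCm38.p6, plus strand). Klk10 and Klk7 were chosen because they had the highest levels in unwounded skin, Klk6 because it had the highest in wounded skin, and Klk13 for the largest log2(RPKM + 0.5) difference of set A over unwounded vehicle skin. They are chr7:43712317-43712566 for Klk13, chr7:43780804-43781034 for Klk10, chr7:43811044-43811293 for Klk7 and chr7:43824294-43824498 for Klk6. For Klk10 and Klk6 the stretch stops before the GENCODE start, which is earlier than the RefSeq one, and so holds 231 and 205 of the 250 bases searched. Capitals mark the letters ACAAT, the core read by SOX factors, or their reverse complement ATTGT.
Klk13: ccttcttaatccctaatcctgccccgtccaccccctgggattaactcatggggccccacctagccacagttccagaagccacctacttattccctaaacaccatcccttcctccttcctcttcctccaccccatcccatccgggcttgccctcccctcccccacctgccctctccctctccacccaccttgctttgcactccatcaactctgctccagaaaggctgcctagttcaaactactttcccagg
Klk10: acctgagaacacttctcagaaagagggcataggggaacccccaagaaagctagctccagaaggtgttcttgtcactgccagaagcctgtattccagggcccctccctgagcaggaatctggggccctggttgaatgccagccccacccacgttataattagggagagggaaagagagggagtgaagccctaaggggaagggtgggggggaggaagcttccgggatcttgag
Klk7: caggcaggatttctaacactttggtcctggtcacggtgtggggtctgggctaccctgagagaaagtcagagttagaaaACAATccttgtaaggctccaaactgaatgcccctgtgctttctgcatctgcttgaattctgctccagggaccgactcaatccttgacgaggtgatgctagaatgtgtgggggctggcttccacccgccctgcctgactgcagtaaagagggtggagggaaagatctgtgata
Klk6: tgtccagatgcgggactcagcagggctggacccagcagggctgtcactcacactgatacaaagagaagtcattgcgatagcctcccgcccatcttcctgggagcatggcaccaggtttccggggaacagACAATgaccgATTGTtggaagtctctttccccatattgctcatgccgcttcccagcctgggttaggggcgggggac
The 250 bases before the RefSeq starts were searched on both strands in 11 promoters of the 9 kallikreins. ACAAT or its reverse complement was found in Klk6 (first letters at bases 130 and 140 of the stretch shown, counted from its 5′ end) and Klk7 (at base 79). These are 2 of 9 genes and 2 of 11 promoters, against 27.7% of 32851 mouse promoters. The AP-1 letters TGANTCA were found in 0 of the 11 promoters, against 6.75% of mouse promoters. The letters TATAAA were found in 0 of the 11, against 12.4% of mouse promoters. The Grainyhead letters AACCGGTT were found in 0 of the 11 too, against 0.116% of mouse promoters. No match overlapped another. A match of these letters is a description of the window and not a site of binding.

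RPKM is per length, so levels can be set side by side between genes. In unwounded tamoxifen skin Klk10 and Klk7 led, at 317 ± 114 and 283 ± 83.5 RPKM (SD, n = 3), and their ranges overlapped. In unwounded vehicle skin Klk7 led at 160.1 ± 41.2 RPKM, above Klk10 at 105 ± 25.8 RPKM in each of the 4 libraries (SD, n = 4), although the ranges overlapped. In both wounded sets Klk6 led, at 698 ± 178 RPKM in set B and 316 ± 58.7 RPKM in set A (SD, n = 4 each), and was above Klk7 in every wounded library. Klk14 was the lowest member in all 4 groups. Its lowest level, 0.309 RPKM in an unwounded vehicle library, stood for 18.5 reads per kilobase at the depth of that library. Spink5, which lies apart from the kallikreins on chromosome 18 (43963235 to 44022501), was at rank 4 of 10 in both unwounded groups and in set B and at rank 7 in set A. In unwounded vehicle skin Spink5 and Klk5 could not be ordered, at 65.7 ± 6.11 and 64.7 ± 12.3 RPKM.

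**Figure D1:**
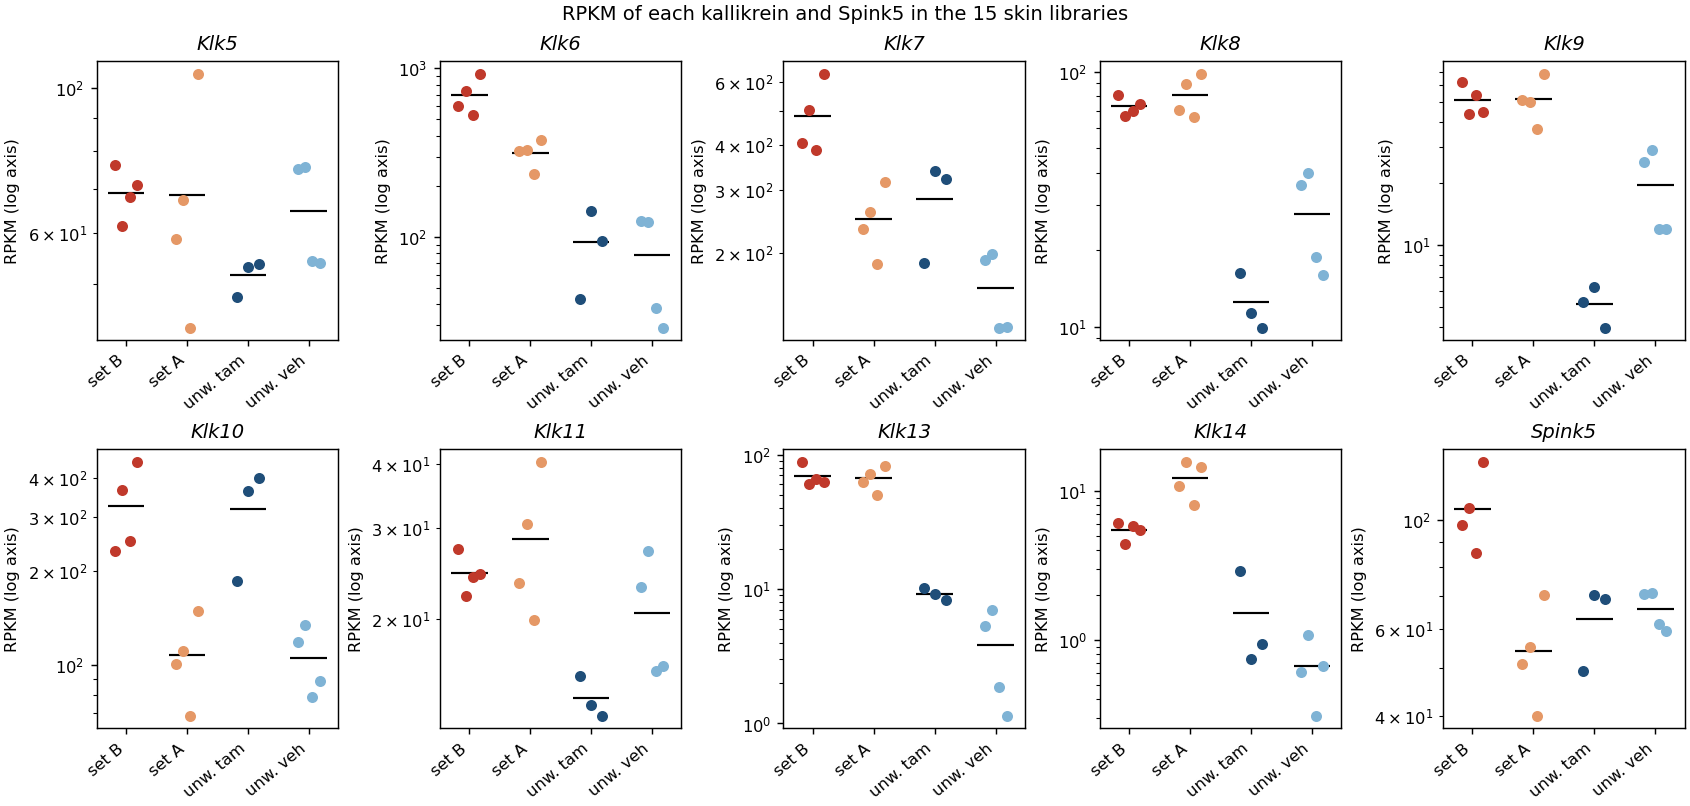
RPKM (log axis) of each of the 10 genes in the 15 libraries, with a point for each library and a line at the group mean, for wounded set B, wounded set A, unwounded tamoxifen (unw. tam) and unwounded vehicle (unw. veh) skin. Klk6 reached 929.9 RPKM in set B, Klk13 was above 50 RPKM in all 8 wounded libraries and below 11 RPKM in all 7 unwounded ones, and Klk10 was high in set B and in unwounded tamoxifen skin.

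Depth was 39277860 to 75102345 alignments per library. Sox2 averaged 2.38 ± 0.261 RPKM in set B, 2.47 ± 0.908 RPKM in set A, 2.40 ± 0.458 RPKM in unwounded tamoxifen skin and 2.26 ± 0.365 RPKM in unwounded vehicle skin (SD), so the targeted gene does not check the treatment names. Markers of keratinocytes, fibroblasts and blood vessels were above 0 in every library, as skin would show. The summed level of 10 hair follicle and shaft markers ran from 2355.4 to 4965.0 RPKM in set B, from 11.1 to 1299 RPKM in set A, from 13420.5 to 18917 RPKM in the unwounded tamoxifen libraries and from 12.05 to 21.97 RPKM in the unwounded vehicle libraries. Replicate 2 of set A, at 1299 RPKM, stood apart from the other 3 of its set, which were at 11.1 to 38.8 RPKM. Because the libraries are of bulk skin, fewer cells of a type and less RNA per cell cannot be told apart in any result below.

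Tamoxifen was compared with vehicle first in unwounded skin, where names do not conflict. Klk10, Klk7 and Klk13 were higher in tamoxifen skin, while Klk9 and Klk8 were lower. These 5 of 10 members passed the test (limma on log2(RPKM + 0.5), adjusted p under 0.05 over 13922 genes), 3 higher and 2 lower. Over all genes tested 69.4% passed, 34.7% higher and 34.7% lower, so the share of members called was no larger than that of the rest. Libraries did not overlap for 2 members that were higher and 3 that were lower, against 35.4% and 34.2% of all genes. The median difference over the members was 0.15 on the log2 scale, and over all genes it was 0.00.

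Klk10, a trypsin-like member of the family, had 187, 363 and 401 RPKM in the tamoxifen libraries, against 118, 135, 79.0 and 88.5 RPKM in the vehicle libraries. No tamoxifen library was as low as a vehicle library, and the lowest of the 3 was replicate 2. The log2 difference was 1.54 ± 0.32 (SE; limma adjusted p = 0.000704), a 2.92-fold higher level. Klk7, the chymotrypsin-like enzyme that cleaves corneodesmosin, had 187, 339.5 and 323 RPKM in tamoxifen skin, against 192, 199.6, 124 and 125 RPKM in vehicle skin. Here the groups overlapped through tamoxifen replicate 2. The log2 difference of Klk7 was 0.81 ± 0.26 (limma adjusted p = 0.0119), and the call was lost without tamoxifen replicate 3 (adjusted p = 0.0614) or replicate 4 (adjusted p = 0.0549). It was also lost in a limma fit blocked on replicate number (adjusted p = 0.0683). Klk13, another trypsin-like kallikrein, had 10.1, 9.20 and 8.24 RPKM in tamoxifen skin, against 5.28, 7.04, 1.85 and 1.14 RPKM in vehicle skin. All 3 tamoxifen libraries were above all 4 vehicle libraries, with a log2 difference of 1.42 ± 0.40 (limma adjusted p = 0.00643).

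Klk9, a chymotrypsin-like kallikrein that is little studied, had 5.27, 6.26 and 3.98 RPKM in tamoxifen skin, against 25.4, 29.0, 12.1 and 11.96 RPKM in vehicle skin. Every tamoxifen library was below every vehicle library, and the level was 3.32-fold lower (log2 difference -1.73 ± 0.30, limma adjusted p = 0.00017). Its neighbour Klk8, known as neuropsin and linked in mice to shedding and to keratinocyte growth, had 16.3, 11.3 and 9.92 RPKM in tamoxifen skin, against 36.0, 40.1, 18.7 and 15.9 RPKM in vehicle skin. The groups met at the edge, where 1 tamoxifen library (16.3 RPKM) was above the lowest vehicle library (15.9 RPKM). The log2 difference of Klk8 was -1.04 ± 0.28 (limma adjusted p = 0.00459). Vehicle replicates 1 and 2 were above replicates 3 and 4 in these genes, as in every member but Klk14.

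The other 5 members did not pass. Klk11, a trypsin-like kallikrein, had 12.96 to 15.5 RPKM in tamoxifen skin, against 15.8 to 27.2 RPKM in vehicle skin, with no overlap and an adjusted p of 0.0533 (log2 difference -0.51 ± 0.22). It passed without vehicle replicate 3 (adjusted p = 0.0296) or 4 (adjusted p = 0.0334), and also without set A replicate 3 or 4, which are in the same fit. Klk5, the trypsin-like enzyme at the head of the cascade, had 47.7 to 53.8 RPKM in tamoxifen skin and 53.9 to 75.6 RPKM in vehicle skin (log2 difference -0.31 ± 0.23, adjusted p = 0.239). Klk6, trypsin-like and made in skin and brain, had 42.8, 143 and 94.7 RPKM in tamoxifen skin, against 124, 124, 38.1 and 29.1 RPKM in vehicle skin, ranges too wide to tell apart. Klk14, a trypsin-like enzyme activated in human skin by KLK5, had 2.89, 0.746 and 0.93 RPKM in tamoxifen skin, against 0.609, 1.07, 0.309 and 0.667 RPKM in vehicle skin (adjusted p = 0.07), and it passed without tamoxifen replicate 3 (adjusted p = 0.0249) or vehicle replicate 2 (adjusted p = 0.0385). Spink5 had 49.3, 70.2 and 69.0 RPKM in tamoxifen skin, against 70.8, 71.1, 61.4 and 59.5 RPKM in vehicle skin. Its log2 difference was -0.08 ± 0.18 (adjusted p = 0.719).

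Other cell markers moved in the same comparison. All 10 hair follicle and shaft markers were higher in tamoxifen skin, 7 of 8 differentiated keratinocyte markers were lower and 1 higher, and all 5 macrophage markers were lower. The differentiated keratinocyte sum was 2371 to 3434 RPKM with tamoxifen, against 7155 to 8087 RPKM with vehicle. Fibroblast markers summed to 1259 to 3023 RPKM with tamoxifen, against 3610.2 to 7105 RPKM with vehicle, and skeletal muscle markers to 1658 to 3472 RPKM with tamoxifen, against 5463 to 8628 RPKM with vehicle. No marker on these lists was at 0 in any library. Tamoxifen replicate 2 had the lowest Klk5, Klk6, Klk7, Klk10 and Spink5 of its group and the highest Klk8, Klk11, Klk13 and Klk14. Several marker sums were at an edge of the group in that library. Its hair (13420.5 RPKM) and wound-activated keratinocyte (1416 RPKM) sums were among the lowest ones. Its fibroblast (3023 RPKM) and skeletal muscle (3472 RPKM) sums were among the highest ones. The part of these markers in the kallikrein differences was not tested.

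**Figure D2:**
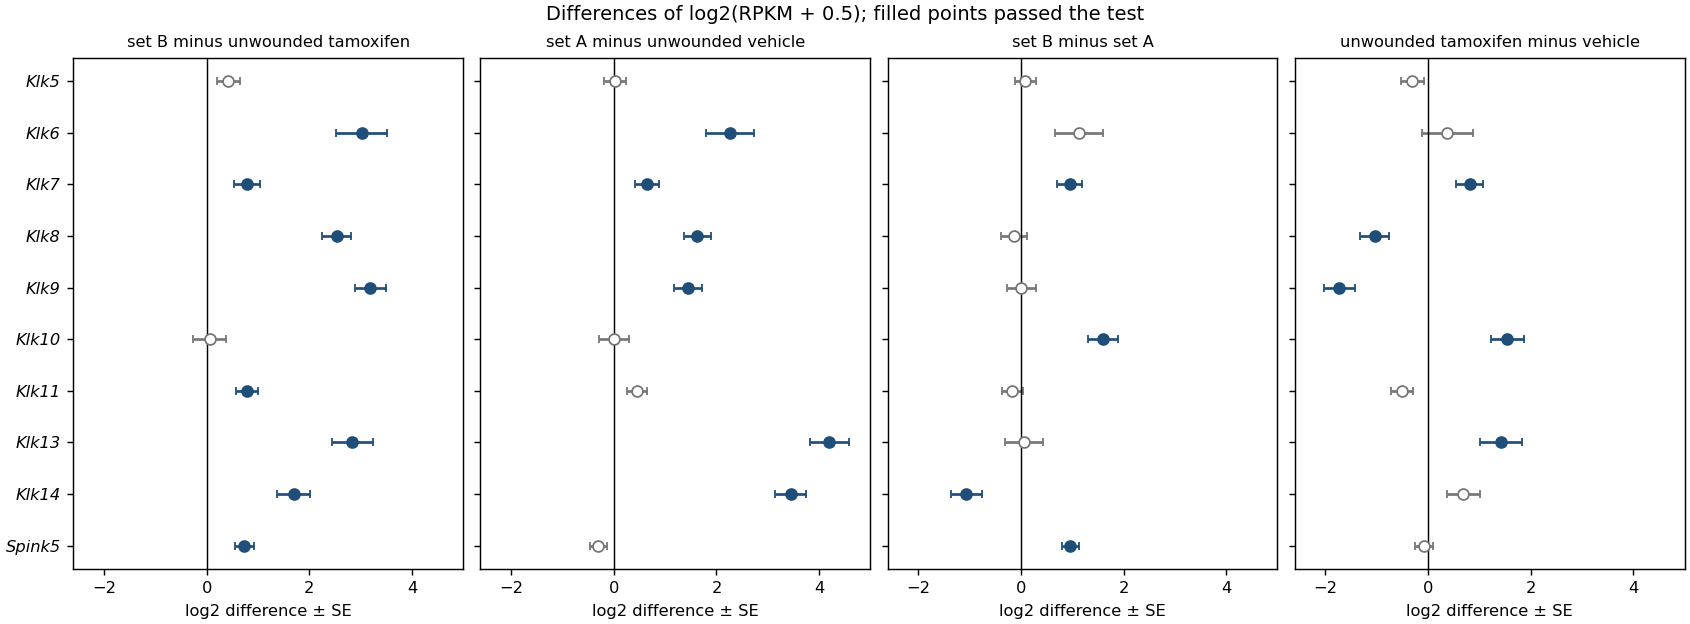
Differences of log2(RPKM + 0.5) with their standard errors for the 10 genes (rows) in 4 comparisons (panels), where filled points passed the test. Klk10 and Klk7 were higher in set B than in set A and in tamoxifen than in vehicle unwounded skin, and no member was called lower in either wounded set shown against its unwounded group.

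Wounded set B was then compared with wounded set A, which is tamoxifen over vehicle by the gene table and vehicle over tamoxifen by the sample records. Klk10, Spink5 and Klk7 were higher in set B and Klk14 was lower. These 4 of 10 members passed, 3 higher and 1 lower, where 31.1% of all genes tested passed, 15.5% higher and 15.6% lower. The sets did not overlap for 4 members higher and 1 lower, against 13.7% and 14.6% of all genes. The members' median log2 difference was 0.07, against 0.00 over all genes.

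Klk10 had 233, 365, 250.2 and 451 RPKM in set B, against 101, 110.5, 68.5 and 149 RPKM in set A. All 4 libraries of set B were above all 4 of set A, by 1.59 ± 0.30 on the log2 scale (limma adjusted p = 0.00131), or 3.02-fold. Spink5 had 97.6, 106, 85.4 and 131 RPKM in set B, against 51.0, 55.2, 40.005 and 70.2 RPKM in set A. This inhibitor was 1.95-fold higher in set B, again with no overlap (log2 difference 0.96 ± 0.17, limma adjusted p = 0.000925). Klk7 had 407, 502, 389 and 633 RPKM in set B, against 234, 260.1, 187 and 316 RPKM in set A. The 2 sets did not overlap, and the log2 difference was 0.95 ± 0.24 (limma adjusted p = 0.00812). Klk14 went the other way, with 6.13, 4.41, 5.78 and 5.47 RPKM in set B, against 10.8, 15.7, 7.98 and 14.4 RPKM in set A. The highest library of set B was below the lowest of set A, and the log2 difference was -1.06 ± 0.30 (limma adjusted p = 0.0149).

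Klk6 had 596, 739, 527 and 929.9 RPKM in set B, against 325, 328, 235 and 376 RPKM in set A. The sets did not overlap, yet the log2 difference of 1.13 ± 0.46 missed the threshold in the model of all groups (limma adjusted p = 0.0808), which takes in the wide spread of Klk6 in unwounded skin. The labels do not say what a replicate number marks, and a pairing of the 2 sets by number was not established. In a limma fit blocked on these numbers Klk6 passed (adjusted p = 0.00217), which made 5 members called. It also passed when only the 2 sets were fitted (adjusted p = 0.00626). The other 5 members overlapped between the sets. Klk13 averaged 69.2 ± 12.9 RPKM in set B and 66.9 ± 13.8 RPKM in set A, Klk9 averaged 51.0 ± 8.81 RPKM in set B and 51.4 ± 12.98 RPKM in set A, and Klk8 averaged 73.2 ± 6.06 RPKM in set B and 81.3 ± 15.04 RPKM in set A (SD, n = 4 each). Klk5 averaged 69.1 ± 6.10 RPKM in set B and 68.5 ± 26.5 RPKM in set A, and Klk11 24.5 ± 2.14 RPKM in set B and 28.6 ± 9.04 RPKM in set A. Their log2 differences lay between -0.17 and 0.08.

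Beside these results, all 10 hair follicle and shaft markers, 3 of 6 basal keratinocyte markers and 1 of 5 wound-activated keratinocyte markers were higher in set B than in set A. Lower in set B were 2 of 8 differentiated keratinocyte, 4 of 5 sebaceous gland, 3 of 5 macrophage, 1 of 4 neutrophil, 3 of 5 fibroblast and 2 of 3 endothelial markers. In set A, the library with the high hair sum (replicate 2, 1299 RPKM) had 110.5 RPKM of Klk10, inside the 68.5 to 149 RPKM of its set. Without that library and unwounded tamoxifen replicate 2, a choice made after the data were seen, the same number of members (4) was called between the sets. The part of these markers in the differences between the sets, that of Klk10 included, was not tested.

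Wounding was next compared with the unwounded state. By the gene table's names the pairs are set B with unwounded tamoxifen and set A with unwounded vehicle, and by the sample records set B with unwounded vehicle and set A with unwounded tamoxifen. These comparisons share groups with each other and with the treatment comparisons, so each is given by its own values. Klk6, Klk8, Klk9, Klk13 and Klk14 were higher in the wounded set in all 4 pairings. Against unwounded tamoxifen, set B had 8 members higher and none lower, where 25.9% of all genes tested were called higher, 28.9% lower and 54.8% in all. Against unwounded vehicle, set A had 6 higher and none lower, where 20.4% were called higher, 19.4% lower and 39.8% in all. Libraries of set B were all above those of unwounded tamoxifen skin for 9 members, where 26.6% of all genes did not overlap in that direction and 31.3% in the other. Libraries of set A were all above those of unwounded vehicle skin for 5 members, where 18.6% of all genes did not overlap in that direction and 17.1% in the other. The members' median log2 difference was 1.24 for set B, against -0.05 over all genes, and 1.05 for set A, against 0.01 over all genes. In the limma fit, 0 members were lower in either pairing at an unadjusted p under 0.05.

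In set A over unwounded vehicle, Klk13 had the largest difference of log2(RPKM + 0.5). It had 62.9, 71.3, 50.3 and 82.9 RPKM in set A, against 5.28, 7.04, 1.85 and 1.14 RPKM in unwounded vehicle skin, a difference of 4.20 ± 0.37 on the log2 scale (limma adjusted p = 3.11e-06). In set B it had 88.3, 60.1, 65.9 and 62.7 RPKM, against 10.1, 9.20 and 8.24 RPKM in unwounded tamoxifen skin (log2 difference 2.84 ± 0.40, limma adjusted p = 5.81e-05). All 8 wounded libraries were above all 7 unwounded ones. Klk6 was higher by 3.02 ± 0.50 in set B over unwounded tamoxifen (limma adjusted p = 0.0002), an 8.12-fold change, and by 2.27 ± 0.46 in set A over unwounded vehicle (limma adjusted p = 0.00167), a 4.82-fold change. Its lowest wounded library, at 235 RPKM, was above its highest unwounded library, at 143 RPKM.

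Klk8 and Klk9, which are next to each other in the cluster, were alike between the 2 wounded sets and differed between the unwounded groups. Klk8 ran from 66.9 to 80.9 RPKM in set B and from 66.5 to 98.2 RPKM in set A, above the 9.92 to 16.3 RPKM of unwounded tamoxifen and the 15.9 to 40.1 RPKM of unwounded vehicle skin. Its log2 difference was 2.53 ± 0.28 for set B over unwounded tamoxifen (limma adjusted p = 6.54e-06) and 1.63 ± 0.26 for set A over unwounded vehicle (limma adjusted p = 0.000288). Klk9 ran from 43.5 to 62.3 RPKM in set B and from 36.8 to 68.4 RPKM in set A, above the 3.98 to 6.26 RPKM of unwounded tamoxifen and the 11.96 to 29.0 RPKM of unwounded vehicle skin. Its log2 differences were 3.19 ± 0.30 (limma adjusted p = 1.64e-06) in set B and 1.45 ± 0.28 (limma adjusted p = 0.00112) in set A over the same groups.

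Klk14, the lowest member, was higher in set A over unwounded vehicle by 3.45 ± 0.30 on the log2 scale (limma adjusted p = 2.37e-06) and in set B over unwounded tamoxifen by 1.70 ± 0.32 (limma adjusted p = 0.000553). Since its unwounded level is near the added 0.5 RPKM, these values understate the ratio of its means. Klk7 was higher by 0.79 ± 0.26 in set B over unwounded tamoxifen and by 0.65 ± 0.24 in set A over unwounded vehicle (limma adjusted p = 0.0181 and 0.0422). The first call was lost without unwounded tamoxifen replicate 2 (0.52, adjusted p = 0.107) or set B replicate 4 (adjusted p = 0.0537), and without unwounded tamoxifen replicate 2 and set A replicate 2 together (adjusted p = 0.119). The second was lost without unwounded vehicle replicate 3 or 4, set A replicate 1, 2 or 4, or set B replicate 2, at adjusted p of 0.0532 to 0.12. It was also lost with no filter on low values (adjusted p = 0.0854) and with median-of-ratios scaling (adjusted p = 0.05001). The second call was lost too in a fit blocked on replicate number (adjusted p = 0.0517) and without the same 2 libraries together (adjusted p = 0.051).

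Klk11 and Spink5 passed in set B over unwounded tamoxifen, at log2 differences of 0.79 ± 0.22 and 0.74 ± 0.18 (limma adjusted p = 0.00779 and 0.00389). In set A over unwounded vehicle they did not, at 0.45 ± 0.20 and -0.30 ± 0.17 (limma adjusted p = 0.093 and 0.176). In these pairings, leaving out 1 library moved 3 uncalled members past the threshold. In set A over unwounded vehicle, Klk11 passed without unwounded vehicle replicate 2 or set A replicate 3 (adjusted p = 0.0344 and 0.0288), and Spink5 passed, as lower, without set A replicate 4 (adjusted p = 0.0445). Klk5 passed in set B over unwounded tamoxifen without set A replicate 4 (adjusted p = 0.0371). In the model of all groups with all libraries, Klk5 and Klk10 passed in neither pairing. For set B over unwounded tamoxifen, Klk5 libraries did not overlap. There Klk5 passed when only these 2 groups were fitted, and also in a fit blocked on replicate number. Klk10 differed by 0.06 ± 0.32 in set B over unwounded tamoxifen and by 0.01 ± 0.30 in set A over unwounded vehicle, and Klk5 by 0.42 ± 0.23 and 0.03 ± 0.21 in the same 2 pairings.

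Under the sample records' names the same 5 kallikreins were higher. Set B over unwounded vehicle had 8 members higher and none lower, where 30.7% of all genes tested were called higher, 28.6% lower and 59.2% in all. They were Klk13 (log2 difference 4.26 ± 0.37), Klk6 (3.40 ± 0.46), Klk14 (2.38 ± 0.30), Klk10 (1.60 ± 0.30), Klk7 (1.60 ± 0.24), Klk8 (1.49 ± 0.26), Klk9 (1.46 ± 0.28) and Spink5 (0.66 ± 0.17). Set A over unwounded tamoxifen had 6 higher (Klk6, Klk8, Klk9, Klk11, Klk13 and Klk14) and 1 lower (Klk10), where 31.3% of all genes were called higher, 34.1% lower and 65.4% in all. Klk10 was 2.90-fold lower there (log2 difference -1.54 ± 0.32, limma adjusted p = 0.00078). The direction of wounding therefore depended on the naming for Klk10, which differed by 0.06 and 0.01 under the gene table's names and by 1.60 and -1.54 under the records' names. Spink5 and Klk7 passed in set B over unwounded vehicle and not in set A over unwounded tamoxifen (log2 differences -0.22 ± 0.18 and -0.16 ± 0.26). By the gene table's names Klk7 passed in both sets, and Spink5 in set B and not in set A. Klk5 passed in set A over unwounded tamoxifen without set A replicate 3 (adjusted p = 0.0304).

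Wound-activated keratinocyte markers were also higher, as a sum, in both wounded sets than in both unwounded groups. Their sum averaged 9783 ± 882 RPKM in set B, 7244 ± 937 RPKM in set A, 2139 ± 628 RPKM in unwounded tamoxifen skin and 951 ± 476 RPKM in unwounded vehicle skin (SD). The basal keratinocyte sum averaged 8042 ± 686 RPKM in set B, 6471 ± 1483 RPKM in set A, 3631 ± 584 RPKM in unwounded tamoxifen skin and 3992 ± 264 RPKM in unwounded vehicle skin. The neutrophil sum averaged 1274 ± 302 RPKM in set B, 2092 ± 767 RPKM in set A, 28.2 ± 12.3 RPKM in unwounded tamoxifen skin and 85.8 ± 16.5 RPKM in unwounded vehicle skin. Of the 5 wound-activated markers, 4 were called higher in set B over unwounded tamoxifen and 5 in set A over unwounded vehicle. By the records' names 5 were higher in set B, and 4 higher and 1 lower in set A. Of 8 differentiated keratinocyte markers, 3 were higher and 2 lower in set B over unwounded tamoxifen. In set A over unwounded vehicle 1 was higher and 4 lower. By the records' names 0 were higher and 4 lower in set B, and 4 higher and 2 lower in set A. Hair follicle and shaft markers moved with Klk10 under the records' names. All 10 were lower in set A over unwounded tamoxifen (median log2 difference -7.90) and all 10 higher in set B over unwounded vehicle (median 7.17). By the gene table's names 5 of 10 were called lower in set B over unwounded tamoxifen (median -2.04). Libraries did not overlap in that direction for all 10, against 31.3% of all genes. In set A over unwounded vehicle 1 of 10 was called higher (median 1.62). Klk10 differed by 0.06 and 0.01 in these 2 pairings. The part of these marker lists in the kallikrein differences was not tested.

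**Figure D3:**
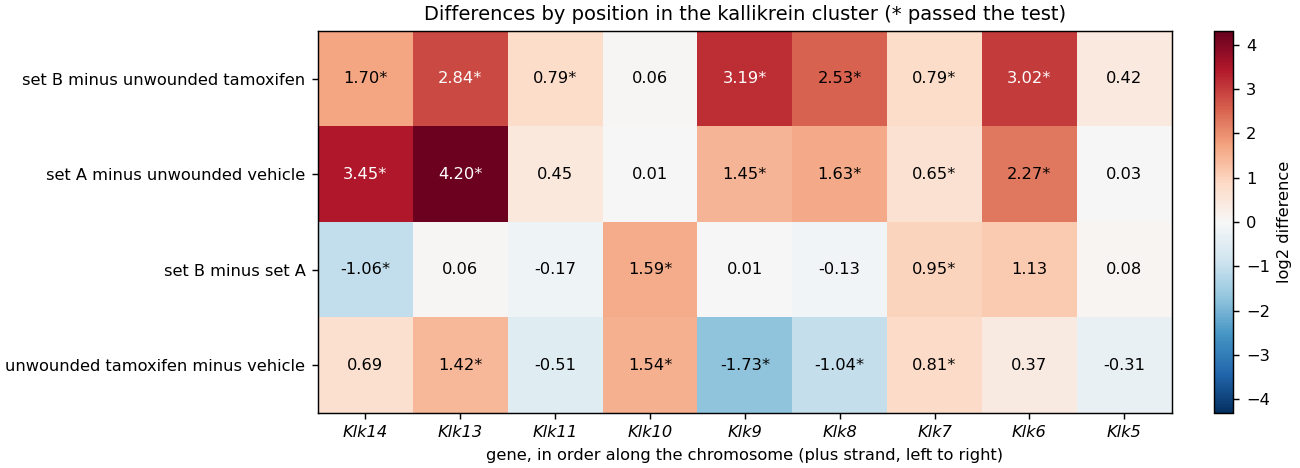
Log2 differences of the 9 kallikreins in their order along chromosome 7 (columns, Klk12 not drawn) in 4 comparisons (rows), with an asterisk where the test was passed. The smallest values of the wounding rows are at Klk10 and Klk5 (0.06 and 0.42 in set B, 0.01 and 0.03 in set A), neither of which passed. Klk9, on one side of Klk10, passed in both wounding rows and Klk11, on the other, in set B, and the unwounded tamoxifen row holds both higher (Klk10, 1.54) and lower (Klk9, -1.73) neighbours.

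Whether the wounded difference differed between treatments was tested as an interaction under each naming. By the gene table's names 3 of 10 members passed, 2 higher and 1 lower, where 40% of all genes tested passed, 19.7% higher and 20.2% lower. The difference in set B over unwounded tamoxifen was larger than that in set A over unwounded vehicle for Klk9 (1.74 ± 0.41, limma adjusted p = 0.0048) and Spink5 (1.04 ± 0.25, limma adjusted p = 0.00534). For Klk14 it was smaller (-1.75 ± 0.44, limma adjusted p = 0.00656). Klk8 and Klk13 did not pass (adjusted p = 0.0736 and 0.063), but Klk8 passed without unwounded tamoxifen replicate 2 or unwounded vehicle replicate 3 or 4 (adjusted p = 0.0204 to 0.0475), Klk13 without unwounded vehicle replicate 1 or 2 (adjusted p = 0.0366 and 0.0113), and Klk5 without set A replicate 4 (adjusted p = 0.0404). By the sample records' names 6 of 10 passed, 2 higher and 4 lower, where 68.5% of all genes passed, 33.9% higher and 34.6% lower. Klk9 and Klk8 were positive and Klk10, Klk7, Klk13 and Spink5 negative. Under these names Klk6 passed without unwounded tamoxifen replicate 2 or unwounded vehicle replicate 1 or 2 (adjusted p = 0.0186 to 0.0268), Klk14 without unwounded tamoxifen replicate 2 (adjusted p = 0.0465), and Klk11 without unwounded vehicle replicate 3 or 4 or set A replicate 1 or 3 (adjusted p = 0.0182 to 0.049). Spink5 changed sign with the naming (1.04 and -0.88). Both interactions subtract the same unwounded difference, which was -1.73 for Klk9, while the wounded sets differed by 0.01 in it, so its positive sign under both namings restates that unwounded difference. Klk8 and Klk13 are alike in this. Their unwounded differences were -1.04 and 1.42, and the wounded sets differed by -0.13 and 0.06 in them.

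The balance of protease to inhibitor messages is described as the summed RPKM of the 9 kallikreins over the RPKM of Spink5, with no test. The ratio was 16.2 to 17.6 in set B, 17.8 to 18.5 in set A, 10.4 to 13.4 in the unwounded tamoxifen libraries and 5.60 to 8.96 in the unwounded vehicle libraries. The 4 groups did not overlap. In set B both the kallikrein sum and Spink5 were high, averaging 1798 and 105 RPKM, while in set A the sum averaged 982 RPKM and Spink5 54.1 RPKM. The sum is carried by its most abundant genes. With the median kallikrein of each library in place of the sum, the log2 ratio averaged -0.57 in set B, 0.37 in set A, -2.13 in unwounded tamoxifen skin and -1.35 in unwounded vehicle skin, so the order of the 2 unwounded groups was the other way round. A ratio of messages says nothing of active enzyme, since kallikreins are made as precursors.

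The make-up of the sum differed as well. Klk6, Klk7 and Klk10 together gave 83.1 ± 4.51% in set B, 68.7 ± 1.30% in set A, 87.0 ± 5.21% in unwounded tamoxifen skin and 71.3 ± 1.01% in unwounded vehicle skin (SD). Klk6 alone was 38.6% in set B and 32.4% in set A, against 11.3% in unwounded tamoxifen and 14.9% in unwounded vehicle skin. Klk10 was 17.8% in set B, 10.8% in set A, 39.7% in unwounded tamoxifen and 22.4% in unwounded vehicle skin. Klk5, the head of the cascade in human skin, was 3.97% in set B, 6.81% in set A, 6.95% in unwounded tamoxifen and 13.98% in unwounded vehicle skin.

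**Figure D4:**
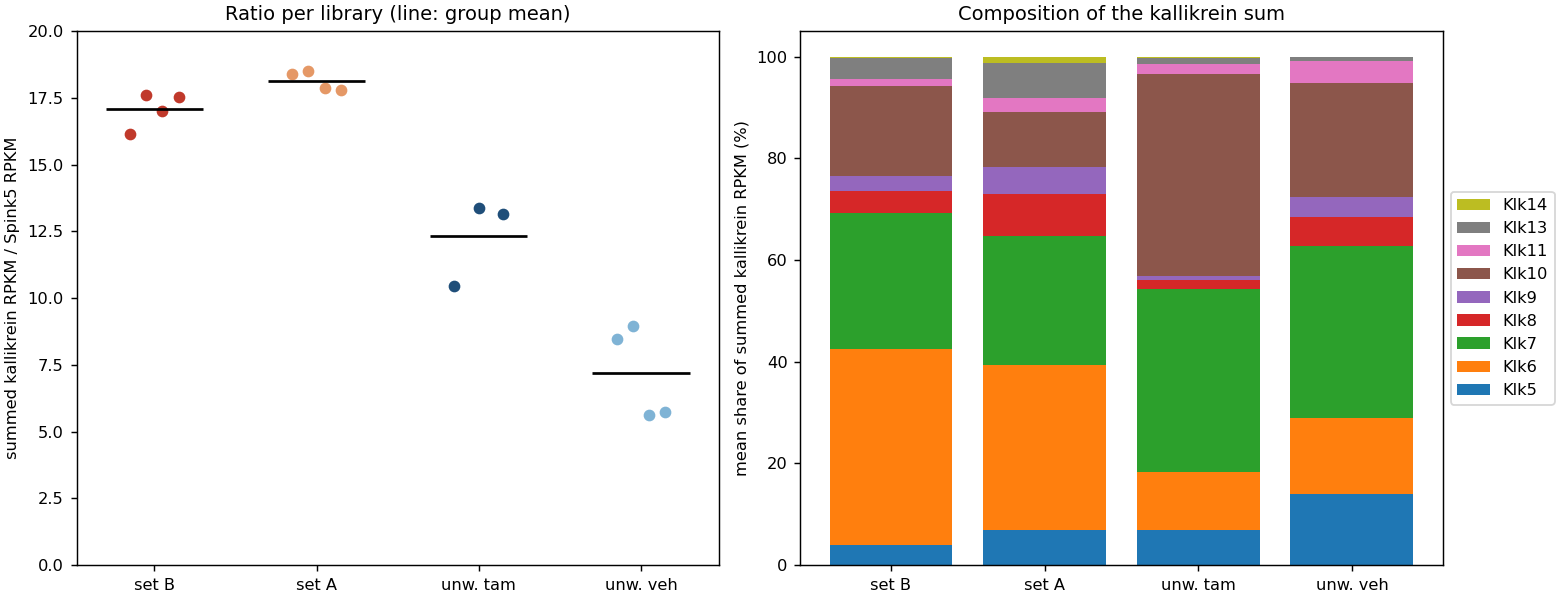
Left, the summed RPKM of the 9 kallikreins over the RPKM of Spink5, a point per library and a line at the group mean, and right, the mean share (%) of each kallikrein in that sum, for set B, set A, unwounded tamoxifen (unw. tam) and unwounded vehicle (unw. veh) skin. Wounded libraries lie at 16.2 to 18.5 and unwounded ones at 5.60 to 13.4, and Klk6 takes 38.6% of the sum in set B.

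Likeness of pattern was measured as the root mean square difference of log2(RPKM + 0.5) over the 15 libraries, each gene centred on its own mean, among the 13922 genes tested. Within the family Klk5 and Klk11 were closest (0.25), then Klk8 and Klk9 (0.32), Klk5 and Spink5 (0.38), Klk7 and Spink5 (0.43) and Klk7 and Klk10 (0.48). A small value comes easily to genes that vary little, as Klk5 does (0.31 about its own mean), and less so to Klk8 and Klk9 (1.12 and 1.30). Among other genes, Klk10 was closest to Plet1 (0.20) and Fam167a (0.24), and Klk7 to Porcn (0.19) and Cstb (0.21), the latter encoding cystatin B, an inhibitor of cathepsins. Klk13 was closest to Tnc (0.37), which encodes the wound matrix protein tenascin C, and Krt6a (0.44), a keratin of wounded epidermis. Klk6 was closest to Hbegf (0.53), a growth factor, and Sh2d5 (0.54). Klk8 was closest to Serpina3n (0.32), a serine protease inhibitor, and Bcl2l15 (0.33), and Klk9 to Serpina3n (0.32) and Chil1 (0.34). Klk5 was closest to Grhl3 (0.14), a Grainyhead factor of barrier formation, and Ceacam19 (0.14), Klk11 to Sdr9c7 (0.17) and Mal2 (0.17), Klk14 to Mest (0.54) and Cdhr1 (0.57), and Spink5 to Fam89a (0.13) and Pla2g2f (0.13), an epidermal phospholipase. These 15 libraries share their groups, so nearness says only that levels moved alike.

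The other genes of the pathway were taken as lists. Of 3 other kallikreins near the cluster, Klk12 passed the filter, at 2.28 to 2.63 RPKM in set B, 1.40 to 3.21 RPKM in set A, 0.707 to 1.15 RPKM in unwounded tamoxifen and 0.474 to 1.05 RPKM in unwounded vehicle skin. It was higher with wounding by the gene table's names, by 1.04 ± 0.20 in set B and 1.10 ± 0.19 in set A (limma adjusted p = 0.000748 and 0.000479). Klk4 was under the filter, as was Klk15, which reached 0.8292 to 1.67 RPKM in unwounded tamoxifen skin and stayed at or below 0.338 RPKM elsewhere.

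Among 7 other epidermal proteases that passed the filter (Mep1a and Mep1b did not), 2 were higher and 1 lower in unwounded tamoxifen over vehicle skin. Of all genes tested, 34.7% were called higher and 34.7% lower in that comparison. Matriptase (St14), which activates pro-kallikreins in mouse epidermis, had 65.3, 69.6 and 77.3 RPKM in tamoxifen skin, against 18.9, 22.6, 16.3 and 16.1 RPKM in vehicle skin (log2 difference 1.92 ± 0.20, limma adjusted p = 1.57e-06). Prostasin (Prss8), its partner protease, was higher by 1.58 ± 0.25, and the lysosomal protease legumain (Lgmn) was lower, averaging 50.1 ± 14.8 RPKM in tamoxifen skin and 200.3 ± 42.6 RPKM in vehicle skin (SD). In set B over set A, 3 were higher and none lower, with St14 at 0.95 ± 0.18, Prss8 at 1.03 ± 0.23 and cathepsin L (Ctsl) at 0.63 ± 0.17. There 15.5% of all genes were called higher and 15.6% lower. With wounding, 4 were higher and 2 lower in set B over unwounded tamoxifen and 4 higher and none lower in set A over unwounded vehicle. Of all genes, 25.9% were called higher and 28.9% lower in the former pairing, and 20.4% and 19.4% in the latter. St14 and Prss8 were the 2 lower ones, at -1.03 ± 0.20 and -0.91 ± 0.25, and neither passed in set A over unwounded vehicle.

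Among 5 other inhibitors tested (A2ml1 and A2m were under the filter), 3 were higher and 1 lower in unwounded tamoxifen over vehicle skin and 3 were higher in set B over set A. Of all genes tested, 69.4% passed in the former comparison and 31.1% in the latter. The matriptase inhibitors Spint1 and Spint2 were higher in both, Spint1 by 1.89 ± 0.19 and 0.996 ± 0.17. So was Cst6, which encodes a cystatin that holds back cathepsins and legumain, with 424, 765, 429 and 1049.7 RPKM in set B, against 133, 148, 102 and 289 RPKM in set A. With wounding, Slpi, an inhibitor of neutrophil elastase that also acts on KLK7, was higher by 5.34 ± 0.45 in set B over unwounded tamoxifen and by 4.11 ± 0.42 in set A over unwounded vehicle. In the same pairings Spint1 and Spint2 were lower in set B (-0.82 and -0.62), and Serpina12, a serpin that inhibits KLK7, was lower in set A (-1.34 ± 0.29). By the records' names 3 inhibitors were higher and 1 lower in set B over unwounded vehicle, where 59.2% of all genes passed. In set A over unwounded tamoxifen 1 was higher and 3 lower, where 65.4% passed. Spint1 averaged 40.9 RPKM in set B and 19.3 RPKM in unwounded vehicle skin, so its direction in set B depended on the naming.

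The substrates that passed were corneodesmosin (Cdsn), desmoglein 1 (Dsg1a and Dsg1b), desmocollin 1 (Dsc1) and filaggrin 2 (Flg2), while Flg was not used here. In unwounded skin Cdsn had 384, 485 and 487 RPKM with tamoxifen, against 235, 272, 215 and 206 RPKM with vehicle (log2 difference 0.96 ± 0.22, limma adjusted p = 0.00131). Dsc1 was also higher (0.84 ± 0.15) and Flg2 lower (-0.70 ± 0.27), in a comparison where 69.4% of all genes passed. In set B over set A, Cdsn (0.88 ± 0.20), Flg2 (0.9996 ± 0.25) and Dsg1a (0.42 ± 0.12) were higher, 3 of 5. There 15.5% of all genes were called higher and 15.6% lower. With wounding 1 substrate was higher and 1 lower in set B over unwounded tamoxifen, and 2 were higher and 2 lower in set A over unwounded vehicle. Of all genes tested, 54.8% passed in the former pairing and 39.8% in the latter. By the records' names 3 were higher and 1 lower in set B over unwounded vehicle, where 59.2% of all genes passed. In set A over unwounded tamoxifen 1 was higher and 3 lower, where 65.4% of all genes passed. Dsg1b was higher in both sets by the gene table's names (1.03 ± 0.14 in set B and 0.95 ± 0.13 in set A) and Flg2 lower in both (-0.80 ± 0.27 in set B and -2.49 ± 0.25 in set A). In set A over unwounded vehicle Dsc1 passed as higher (0.84 ± 0.14) and Dsg1a as lower (-0.41 ± 0.12), while their log2 differences in set B over unwounded tamoxifen, -0.0023 and -0.26, did not pass.

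Of the signalling targets, F2rl1, the receptor that some kallikreins cut, had 22.7, 33.7, 26.2 and 41.3 RPKM in set B, against 12.2, 12.1, 11.7 and 16.7 RPKM in set A (log2 difference 1.18 ± 0.17, limma adjusted p = 0.000199). It was higher in unwounded tamoxifen over vehicle skin too (0.71 ± 0.18). Tslp, a cytokine that rises in Netherton-like mouse skin, had 1.04, 0.614 and 0.905 RPKM in unwounded tamoxifen skin, against 12.5, 9.48, 14.2 and 14.7 RPKM in unwounded vehicle skin, with no overlap (log2 difference -3.28 ± 0.17, limma adjusted p = 1.19e-08). With wounding Tslp was higher in set B over unwounded tamoxifen (1.62 ± 0.17) and lower in set A over unwounded vehicle (-0.83 ± 0.16). Its direction in each set depended on the naming. Under both namings the set paired with unwounded tamoxifen skin was higher, and the set paired with unwounded vehicle skin lower. By the records' names its mean was lower in set B than in unwounded vehicle skin, at 3.64 and 12.7 RPKM. It was higher in set A than in unwounded tamoxifen skin, at 6.96 and 0.853 RPKM. Il1b, an inflammatory cytokine, was higher by 5.85 ± 0.25 in set B over unwounded tamoxifen and by 3.87 ± 0.23 in set A over unwounded vehicle. Camp, a peptide precursor that kallikreins process in human skin, was under the filter.

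**Figure D5:**
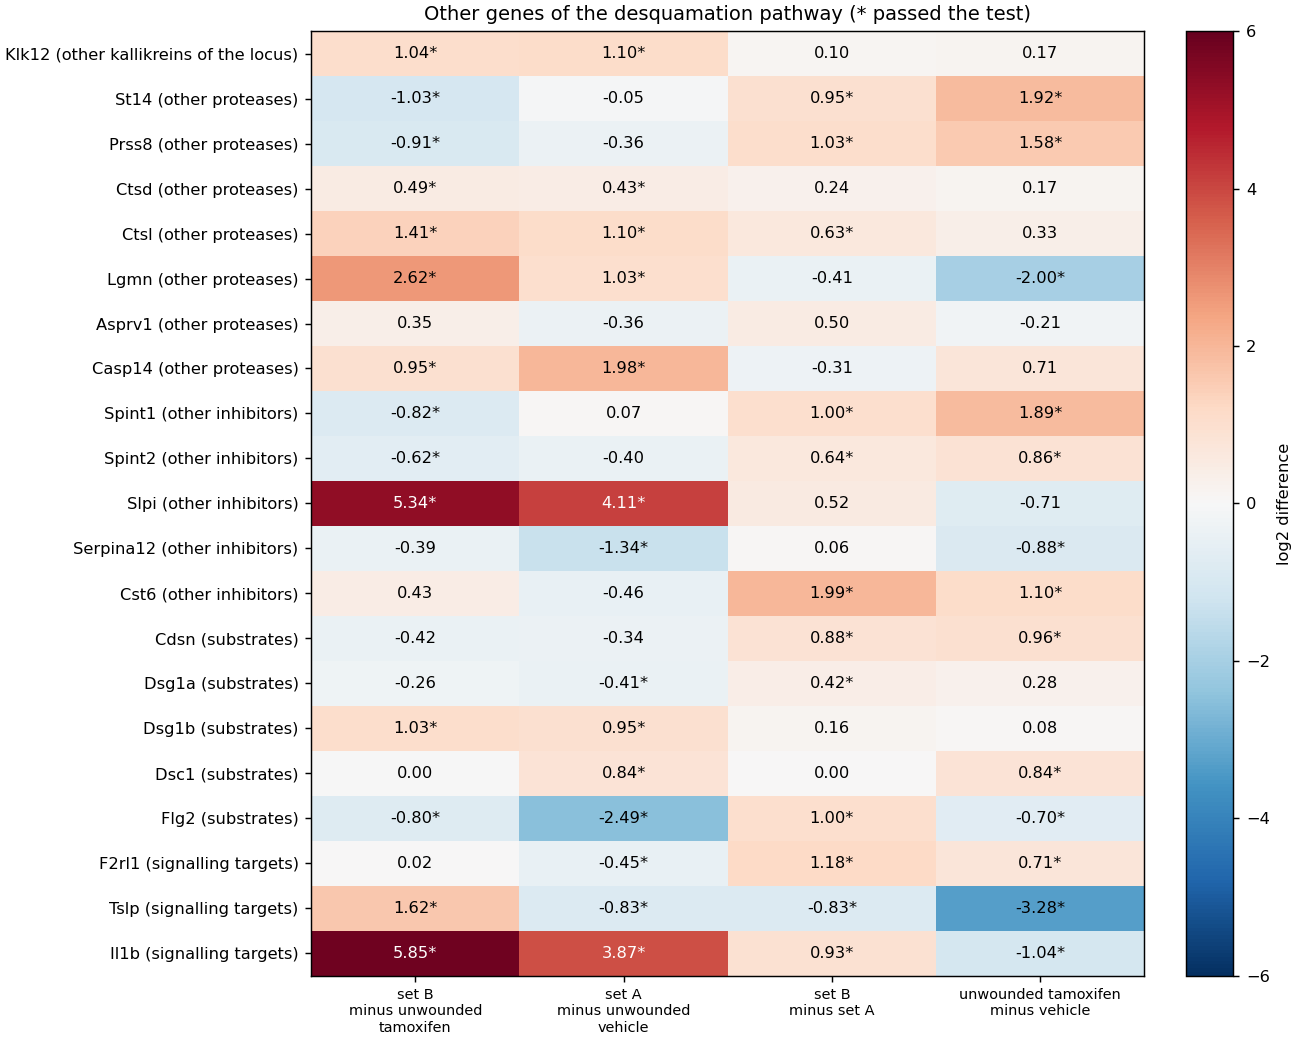
Log2 differences of the other pathway genes (rows) in 4 comparisons (columns), coloured by value with an asterisk where the test was passed. The inhibitor Slpi and the cytokine Il1b are highest in the 2 wounding columns (5.34 and 5.85 in set B), and St14 and Spint1 are higher in the 2 treatment columns (1.92 and 1.89 in unwounded skin).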

How the data were processed

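RNA from whole skin was sequenced on the HiSeq3000 after NEBnext and NuGen library preparation, per the labels' protocols. The authors deposited RPKM values per gene, computed with Partek after TopHat mapping to mm10, per the file headers. The submitters' processing notes list TopHat2 2.1.0, bcl2fastq and Partek, without the annotation, the counting rule or the use of strand. Alignment counts per library (39277860 to 75102345) were deposited by the authors in a sheet of samples. They limit the precision of low values. No source used here ties a kit to a library, and no batch was formed.

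Genes with at least 1 RPKM in at least 3 libraries (13922 of 24543) entered 1 model of 4 groups on log2(RPKM + 0.5), which understates differences of low genes (limma 3.58.1 in R 4.3.3, with trend, two-sided). P-values were adjusted by Benjamini-Hochberg within each of 8 comparisons, and calls were made at adjusted p under 0.05. All 10 members are named, with the 2 genes nearest each in pattern, and from the pathway lists the substrates, those of smallest p and those the results turn on. Members, lists and markers were chosen with earlier results of these data known. Groups follow the sample records, and both namings were analysed. For pairing by replicate number, deviations from group means were correlated over genes between libraries of the same number. Between sets B and A the correlations were 0.123 to 0.43, over 0.1 in 4 of 4 pairs, which held between no other groups. Single pairs of other groups were as large, with -0.211 to 0.425 between unwounded vehicle skin and set A. Libraries of unlike number were not correlated, so these values cannot establish a pairing. Alternatives were the pseudocount, the filter, the scaling, the libraries fitted, library weights, the replicate block and leaving out each library. Other steps used Python 3.11.15 with pandas 2.3.3.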

Additional observations from a re-analysis of the deposited data

Results flagged for a closer look

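The wounding differences of 9 gene and naming combinations differed between treatments by the interaction test (limma, adjusted p under 0.05), which is why they are listed. By the gene table's names they were Klk9 (1.74 ± 0.41 on the log2 scale), Spink5 (1.04 ± 0.25) and Klk14 (-1.75 ± 0.44), as set B over unwounded tamoxifen minus set A over unwounded vehicle. For Klk14 the component differences were 1.70 in set B and 3.45 in set A. For Spink5 they were 0.74 in set B and -0.30 in set A, and for Klk9 3.19 in set B and 1.45 in set A.

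By the sample records' names, as set A over unwounded tamoxifen minus set B over unwounded vehicle, they were Klk10 (-3.14 ± 0.44), Klk7 (-1.76 ± 0.35), Klk13 (-1.48 ± 0.55), Spink5 (-0.88 ± 0.25), Klk8 (1.17 ± 0.38) and Klk9 (1.73 ± 0.41). Klk13, Klk8 and Klk9 differed little between the wounded sets (0.06, -0.13 and 0.01 in set B over set A). Their interactions mainly restate the differences in unwounded skin (1.42, -1.04 and -1.73). The call of Klk13 was lost without unwounded tamoxifen replicate 2 or 3, unwounded vehicle replicate 3, set A replicate 3 or set B replicate 1, at adjusted p of 0.0502 to 0.058. It was also lost with no filter on low values (adjusted p = 0.0605) and without unwounded tamoxifen replicate 2 and set A replicate 2 together (adjusted p = 0.0679). Member levels and the ratio to Spink5 were also searched for a library far from its replicates, in 33 groups of 4. In these, 0 were found where chance gives about 1 in 20. Unwounded tamoxifen skin, with 3 libraries, was not searched, and neither were the marker sums. The hair follicle and shaft sum of set A replicate 2 was 1299 RPKM, against 11.1 to 38.8 RPKM in the rest of its set.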

How the results depend on the processing

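Of the values recomputed under each alternative, 1792 kept their direction and side of the threshold, 23 lost the call, 46 gained it and 39 changed sign. All 39 were of members that had not passed, and the cause was not tested. Called members over all alternatives numbered 4 to 6 (main 5) in unwounded tamoxifen against vehicle skin, 4 to 5 (main 4) in set B against set A, 7 to 9 (main 8) in set B against unwounded tamoxifen, 5 to 7 (main 6) in set A against unwounded vehicle, 8 in set B against unwounded vehicle and 7 to 8 (main 7) in set A against unwounded tamoxifen. By the interaction they numbered 3 to 5 (main 3) under the gene table's names and 5 to 9 (main 6) under the records' names, and 5 and 9 came with library weights. Without unwounded tamoxifen replicate 2 and set A replicate 2 together, chosen after seeing the data, they numbered 5 in unwounded tamoxifen against vehicle, 4 in set B against set A, 7 in set B against unwounded tamoxifen and 5 in set A against unwounded vehicle.

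With the replicate block the called members numbered 6 in unwounded tamoxifen against vehicle, 5 in set B against set A, 9 in set B against unwounded tamoxifen, 5 in set A against unwounded vehicle, 8 in set B against unwounded vehicle, 7 in set A against unwounded tamoxifen, and 4 and 6 in the 2 interactions. In set B against set A the block added Klk6 and changed no other call. In unwounded tamoxifen against vehicle the block lost Klk7 and added Klk11 and Klk14. It lost Klk7 in set A against unwounded vehicle and added Klk5 in set B against unwounded tamoxifen. Whether libraries of the same number are paired is not established for any groups.

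With library weights, signs changed for Spink5 in unwounded tamoxifen against vehicle (0.0659), Klk9 in set B against set A (-0.0377), Klk5 and Klk10 in set A against unwounded vehicle (-0.114 and -0.0601) and Klk10 in set B against unwounded tamoxifen (-0.0372). Without the 2 libraries named above they changed for Spink5 (0.0862), for Klk10 in set B against unwounded tamoxifen (-0.285) and set A against unwounded vehicle (-0.0250), and for Klk10 and Klk7 in the gene table interaction (-0.26 and -0.11). Leaving out 1 library gave -0.17 to 0.0862 for Spink5 and -0.0137 to 0.85 for Klk6 in unwounded tamoxifen against vehicle. In set B against set A it gave -0.14 to 0.15 for Klk9, -0.11 to 0.315 for Klk5, -0.0713 to 0.17 for Klk13 and -0.32 to 0.0112 for Klk11. It gave -0.205 to 0.22 for Klk5 and -0.17 to 0.20 for Klk10 in set A against unwounded vehicle, and -0.29 to 0.26 for Klk10 in set B against unwounded tamoxifen. In the interactions it gave -0.13 to 0.29 for Klk7 and -0.29 to 0.26 for Klk10 under the gene table's names and -0.0079 to 0.42 for Klk5 under the records' names. With the median kallikrein in place of the sum, the log2 ratio to Spink5 moved to -0.57 in set B (sum 4.09), 0.37 in set A (sum 4.18), -2.13 in unwounded tamoxifen skin (sum 3.62) and -1.35 in unwounded vehicle skin (sum 2.81). The test planned for members under the filter was not run, because none was. Of all genes tested, 4328 were called between sets B and A and 7041 with library weights. Median-of-ratios scaling shifted the median of all genes by less than 0.1 in every comparison.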

Other observations

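Spink12, a gene of the same inhibitor family that lies on chromosome 18 from 44104407 to 44108543, near Spink5, was picked after its values were seen. It had 28.3, 43.7, 16.01 and 38.5 RPKM in set B and 19.5, 22.3, 15.7 and 15.8 RPKM in set A, with the ranges of the sets overlapping. In unwounded skin it had 1.48, 36.0 and 36.0 RPKM with tamoxifen, against 0.183, 0.103, 0.215 and 0.0449 RPKM with vehicle. The groups did not overlap, and tamoxifen replicate 2 was far below the other 2 libraries of its group. The log2 difference was 4.45 ± 0.76 in unwounded tamoxifen over vehicle skin (limma adjusted p = 0.000142) and 4.88 ± 0.70 in set A over unwounded vehicle skin (limma adjusted p = 0.000134). Since it was chosen for these values, they are a description.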
